A study of Mus musculus with 2 samples.

Results

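The mRNAs described here belong to 46 genes that a cell uses to copy its DNA and to divide, out of 32291 genes in the deposited table. They were listed by function, with 19 genes of S phase and 27 genes of mitosis, and were followed as a module in the 11 cell types of the authors' annotation and in both libraries. Colitis-associated colon tumors (CACs) were induced in mice with the carcinogen azoxymethane (AOM) and the irritant dextran sodium sulfate (DSS), and the tumor cells were profiled by droplet single-cell RNA sequencing. The study asked what loss of the microRNA gene *Mir34a* in myeloid cells does to such tumors. Each genotype gave 1 library, from the pooled tumors of 3 female mice with 6 to 8 tumors, so no difference between the libraries has a replicate check and none was tested.

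In the group Mir34a_F/F, both alleles of *Mir34a* were floxed, its label names no Cre, and the study describes such control mice as *Mir34a*-proficient. In the group Mir34a_Mye_KO, the same floxed alleles were combined with LysM-Cre, which is active in macrophages and neutrophils but not in epithelial cells or lymphocytes, so a difference in the latter is not one between deleted and undeleted cells. Both groups were on a C57Bl/6 background, began treatment at 6 to 10 weeks of age and received AOM at 10 mg/kg, given 5 days ahead of the first and of the second DSS period. DSS at 2.5% was given for 5 days in each of the first and second periods, with 16 days of water after each, and at 2% for 5 days in the last, and the tumors were taken 110 days after the first AOM dose. For each genotype 30000 cells were loaded, and the annotation does not say from which mouse a cell came.

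A cell that divides first loads the MCM helicase on its DNA in G1, then copies the genome in S phase with the clamp PCNA, newly made deoxynucleotides and new histones, and in mitosis condenses its chromosomes and pulls them apart on a spindle. Cyclin E opens S phase, and cyclins A and B with CDK1 drive entry into mitosis, which ends when the anaphase-promoting complex destroys them. Genes of S phase are switched on by E2F factors in late G1, whereas many genes of mitosis are held back until G2 by the DREAM complex and are activated by B-MYB and FOXM1. In the colon, stem and transit-amplifying cells of the crypt base divide and surface cells do not, while mature neutrophils have left the cell cycle for good.

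The division between S-phase and mitosis genes is visible in their promoters, and the following 4 are shown because they carry several copies of the motifs that set the groups apart. They are RefSeq promoters of build GRCm38.p6, each of 300 bases, from 250 bases before to 50 bases after the start of transcription, printed 5′ to 3′ on the strand of the gene. Capitals mark CCAAT, the cell-cycle homology region (CHR, TTTGAA or TTTAAA) and E2F motifs (TTTGGCGC, TTTCCCGC, TTTGCCGC or TTTCGCGC), searched on both strands, so a motif on the other strand appears as its reverse complement. *Mcm5* lies at chr8:75109259-75109558 (+) and *Mcm6* at chr1:128359656-128359955 (-), and both encode subunits of the replicative helicase. *Ccnb2* (cyclin B2) lies at chr9:70421505-70421804 (-), and *Top2a*, whose enzyme untangles sister chromatids, at chr11:99024140-99024439 (-).
*Mcm5*: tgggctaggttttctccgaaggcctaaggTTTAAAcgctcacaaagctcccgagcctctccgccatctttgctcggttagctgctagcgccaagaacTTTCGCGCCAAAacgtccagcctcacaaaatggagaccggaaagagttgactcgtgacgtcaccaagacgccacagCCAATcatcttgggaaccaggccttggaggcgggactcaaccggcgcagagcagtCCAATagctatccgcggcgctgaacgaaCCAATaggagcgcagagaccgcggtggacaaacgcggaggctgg
*Mcm6*: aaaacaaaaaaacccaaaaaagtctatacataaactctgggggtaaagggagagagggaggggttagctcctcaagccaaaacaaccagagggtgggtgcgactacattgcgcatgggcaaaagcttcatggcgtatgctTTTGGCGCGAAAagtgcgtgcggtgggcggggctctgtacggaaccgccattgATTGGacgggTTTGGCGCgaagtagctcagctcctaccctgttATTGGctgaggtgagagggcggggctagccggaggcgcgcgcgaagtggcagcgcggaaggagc
*Ccnb2*: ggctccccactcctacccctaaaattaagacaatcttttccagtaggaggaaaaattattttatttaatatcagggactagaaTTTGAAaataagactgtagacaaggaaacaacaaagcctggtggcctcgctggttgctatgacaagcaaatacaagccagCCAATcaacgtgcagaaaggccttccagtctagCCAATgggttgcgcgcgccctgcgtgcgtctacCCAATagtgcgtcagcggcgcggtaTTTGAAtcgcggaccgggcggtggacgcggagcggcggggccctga
*Top2a*: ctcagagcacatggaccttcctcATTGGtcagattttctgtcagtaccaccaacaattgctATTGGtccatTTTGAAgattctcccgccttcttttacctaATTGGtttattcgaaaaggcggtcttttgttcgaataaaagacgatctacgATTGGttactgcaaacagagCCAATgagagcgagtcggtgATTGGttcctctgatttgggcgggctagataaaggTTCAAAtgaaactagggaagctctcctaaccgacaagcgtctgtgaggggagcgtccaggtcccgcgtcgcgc

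Promoter windows were found for 39 of the 46 members, 16 genes of S phase with 18 windows and 23 genes of mitosis with 23 windows. A CHR stood in 91.3% of the mitosis windows (21 of 23), in 27.8% of the S-phase windows (5 of 18) and in 27.6% of all 32851 windows of the table. CCAAT was found in 82.6% of the mitosis windows and 66.7% of the S-phase windows, against 37.4% of all. Both motifs together were present in 78.3% of mitosis windows, 22.2% of S-phase windows and 10.7% of all windows. An E2F motif was found in 44.4% of S-phase windows (8 of 18), in 4.35% of mitosis windows (1 of 23, that of *Cdk1*) and in 2.26% of all windows. In *Mcm5* and *Mcm6* E2F motifs of opposite strands overlap, and TTTAAA reads the same on both strands. In *Ccnb2* the CCAAT motifs begin at positions -87, -54 and -21 and a CHR at position 4, counted from the start of transcription as 0. These matches are letters in a window and do not show that a factor was bound.

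The table held 20312 cells in the library labelled Mir34a_F/F and 18571 in the library labelled Mir34a_Mye_KO, with a median of 4787 and 7716 transcripts counted by unique molecular identifier (UMIs) per cell. Where a pair of values is given here, the first is that of the library labelled Mir34a_F/F and the second that of the library labelled Mir34a_Mye_KO. Markers of each of the 11 cell types were highest in the type named for them in both libraries, but epithelial markers also reached summed levels of 53.4 and 45.3 in the next highest type, against 85.4 and 61.3 in epithelial cells. The targeted gene does not settle the labels: the feature for the *Mir34a* primary transcript had 133 and 462 UMIs in macrophages, a log2 ratio of 1.03 (0.74 to 1.31) of all their UMIs, so more in the library labelled as knockout. LysM-Cre is inserted in *Lyz2*, and *Lyz2* was lower in the library labelled as knockout, with 3892 and 1379 UMIs in macrophages and log2 ratios of -2.27 in macrophages, -1.60 in neutrophils, -1.92 in T cells and -1.42 in epithelial cells. A joined Cre and *Lyz2* feature was also lower there, with 451 and 172 UMIs in macrophages, so these features do not settle which library carried Cre. The mature, hairpin and stem-loop features had none in any cell. Every direction given here therefore rests on the labels. A total of 96 barcodes occurred in both libraries, 43 of them with the same cell type, and leaving them out moved no ratio beyond its interval. The methods name 25% as the upper limit of mitochondrial content, but 2470 and 4130 cells were at or above it.

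All 46 mRNAs had UMIs in every cell type with at least 300 cells per library. The level of a gene is given as the mean over cells of its UMIs per 10000 UMIs of the cell, and since each transcript is counted once by its 3′ end, it needs no division by gene length. Summed over the 46 members, among the 7 cell types with at least 300 cells per library the level was highest in T cells, at 20.6 and 17.1, followed in the library labelled Mir34a_F/F by dendritic cells (16.4), epithelial cells (16.3) and mast cells (16.0). In the library labelled Mir34a_Mye_KO, mast cells (13.6) and epithelial cells (13.5) came next after T cells. Neutrophils, which do not divide, still had 13.3 and 10.1, a sum above that of macrophages (12.6) in the first library and below it (11.4) in the second. The neutrophil value shows how much of the sum can stand in cells outside the cycle, through free RNA in the droplets or through members made by resting cells, and which of them applies was not tested.

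Much of the sum came from few genes. *Hmgb2*, a chromatin protein that resting blood cells also make, gave 43.5% of the sum in neutrophils of the library labelled Mir34a_F/F, 36.5% in T cells, 28.6% in macrophages and 19.1% in epithelial cells. A list of 8 members was set apart as also made outside the cell cycle (*Hmgb2*, *Tubb4b*, *Smc4*, *Slbp*, *Pcna*, *Ung*, *Rrm1* and *Mcm7*). These gave 65.2% and 61.1% of the sum in T cells and 49.1% and 47.2% in epithelial cells. Levels over neutrophils did not follow this list for every member. In epithelial cells of the library labelled Mir34a_F/F, *Ung*, *Mcm7* and *Rrm1* had log2 ratios of 1.92, 1.52 and 1.13 over neutrophils. *Hmgb2*, *Pcna*, *Slbp*, *Smc4* and *Tubb4b* had -0.89 to 0.76. Of the other 38, whose median was 0.98, *Kif23*, *Cdt1* and *Mcm2* had 0.35, 0.35 and 0.37. Without the 8 the order of the cell types changed. The other 38 members had their highest summed level in epithelial cells, 8.31 and 7.15, above T cells with 7.17 and 6.63 and macrophages with 5.20 and 5.16. Neutrophils then had 4.29 and 3.39. Dendritic cells had 6.70 and 4.71, mast cells 6.14 and 5.73, and B cells 5.44 and 3.87, the last not far above the neutrophils of their library.

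**Figure D1:**
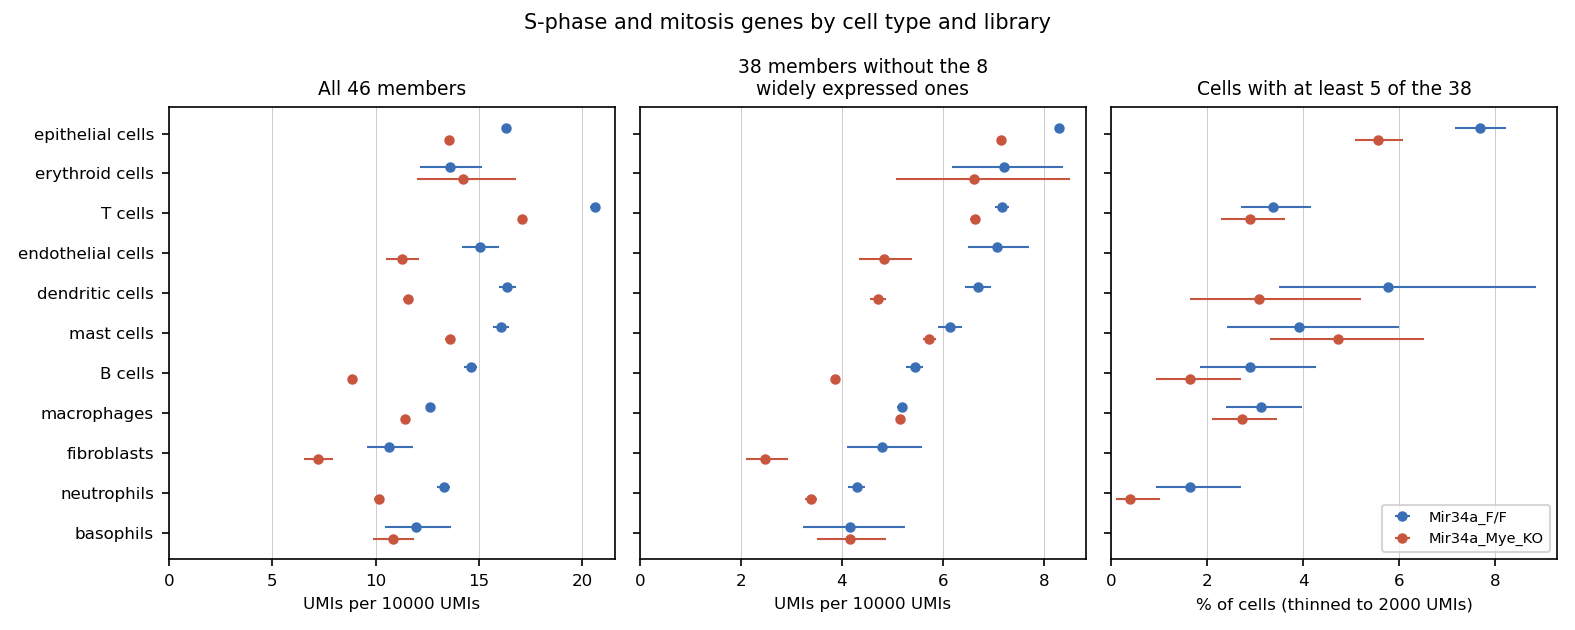
Summed level of all 46 members (UMIs per 10000 UMIs), summed level of the 38 members without the 8 widely expressed ones, and percent of cells with at least 5 of the 38 at 2000 UMIs per cell, by cell type and library, with 95% intervals that cover counting error only. T cells lead the sum over 46 members at 20.6 and 17.1, whereas epithelial cells lead among the types with at least 300 cells once the 8 are left out, at 8.31 and 7.15.

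Gene by gene, the 38 restricted members were all higher in epithelial cells than in neutrophils of the same library, where 76.4% and 75.5% of all genes with at least 25 UMIs were. More than 2 times higher were 19 of them in the library labelled Mir34a_F/F and 23 in the library labelled Mir34a_Mye_KO, against 39.0% and 41.9% of all genes. In T cells 37 and 37 of the 38 stood above neutrophils, against 72.6% and 70.5% of all genes, and in macrophages 30 and 36, against 66.7% and 69.9%. B cells had 29 and 22 of 38 above neutrophils, against 63.0% and 55.6% of all genes, so their second count was near the share of all genes. The median member stood at 80.8% and 77.5% of its epithelial level in T cells, at 63.7% and 68.8% in macrophages, at 64.6% and 47.6% in B cells and at 50.9% and 47.1% in neutrophils.

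The cell type with the highest level differed between members. Among the 7 cell types with at least 300 cells per library, 18 of 40 members with a level of at least 0.1 were highest in epithelial cells in the library labelled Mir34a_F/F, 15 of them genes of mitosis, which were 24 of the 40, while 27.7% of all genes were highest there. In the library labelled Mir34a_Mye_KO this held for 16 of 37 members, 13 of them genes of mitosis, which were 21 of the 37, against 22.4% of all genes. Highest in epithelial cells in both libraries were *Mcm7*, *Rrm2*, *Ccna2* (cyclin A2), *Cdk1*, the kinase *Plk1*, *Cdc20* and *Ube2c* of the anaphase-promoting complex, the kinetochore genes *Cenpe* and *Cenpf*, the spindle genes *Ckap2*, *Tpx2* and *Tubb4b*, and *Mki67*, the gene of the proliferation antigen Ki-67. T cells were highest for 12 and 11 members, 5 and 6 of them genes of mitosis, against 18.2% and 24.3% of all genes, and in both libraries for *Mcm6*, *Rrm1*, *Slbp* (which binds histone mRNA), the chromatin remodeler *Hells*, the kinesins *Kif11* and *Kif23*, the condensin subunit *Smc4* and *Hmgb2*. Mast cells were highest for 2 and 7 members, against 10.3% and 10.0% of all genes, the 7 being *Mcm2*, *Mcm3*, *Mcm5*, *Gins2*, *Pcna*, *Tyms* and *Ccnb2*. Dendritic cells were highest for 6 members in the first library (*Mcm3*, *Mcm4*, *Tyms*, *Uhrf1*, *Aurkb* and *Birc5*) and for *Mcm4* alone in the second, against 13.1% and 15.4% of all genes. *Cdt1*, which loads the helicase, was highest in B cells in both libraries, and *Bub1b* in macrophages of the first and in B cells of the second. No member was highest in neutrophils.

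**Figure D2:**
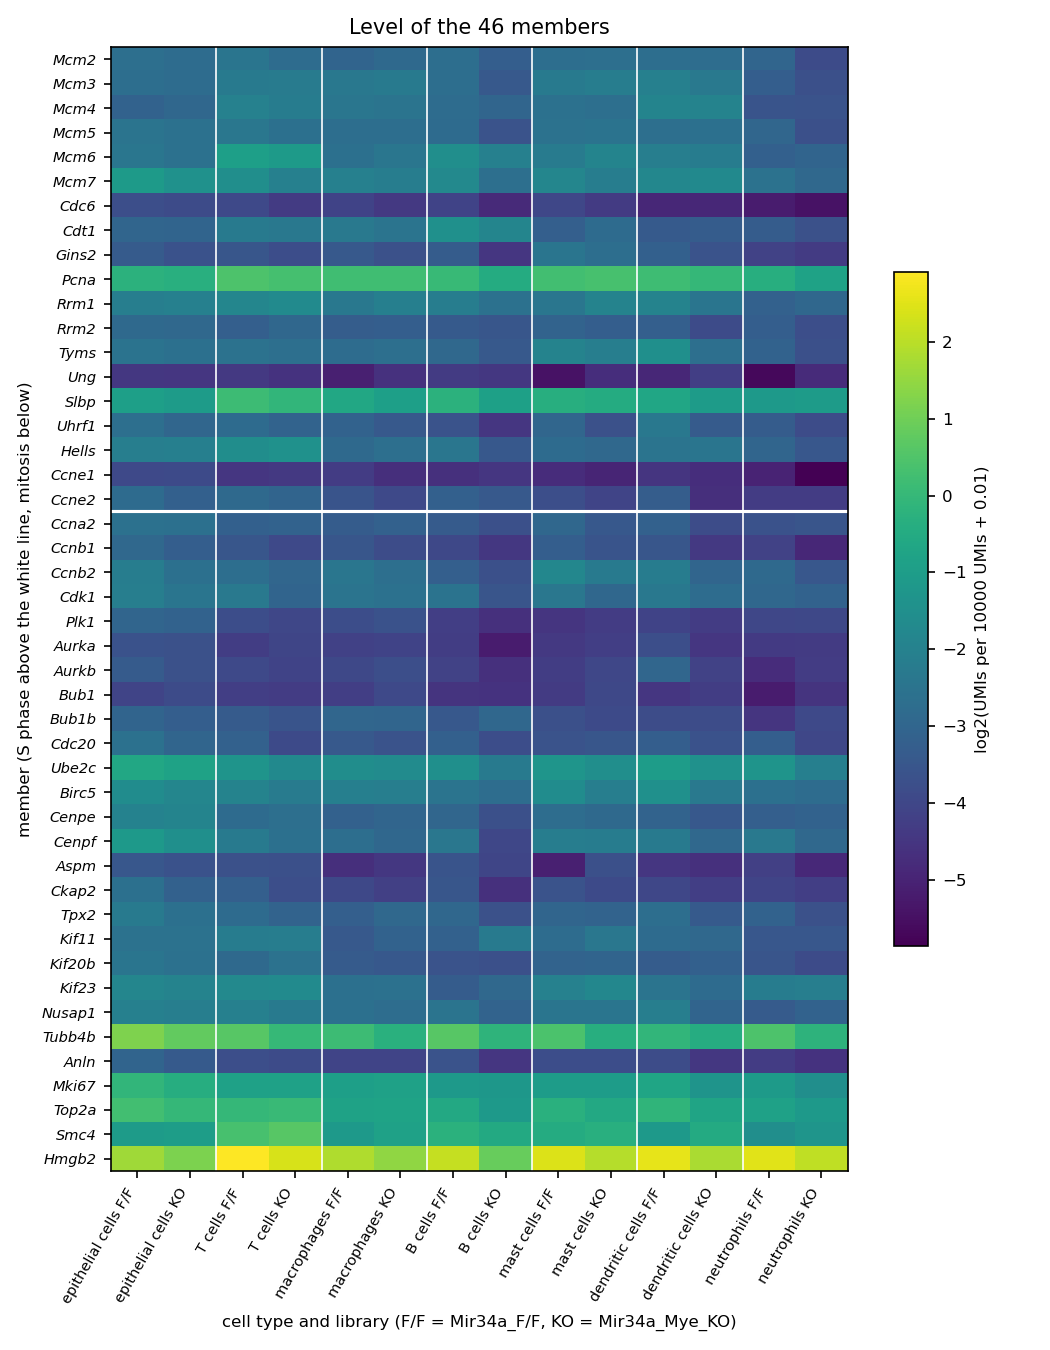
Heat map of the level of each of the 46 members (rows, S phase above mitosis) in 7 cell types and both libraries (columns), as log2 of UMIs per 10000 UMIs plus 0.01. *Hmgb2*, *Tubb4b* and *Pcna* are high in every column. Of the 24 genes of mitosis with a level of at least 0.1 in the library labelled Mir34a_F/F, 15 are highest in epithelial cells there.

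In epithelial cells, which carried 156178 and 112527 UMIs of the module, the S-phase members summed to 3.96 and 3.62 and the mitosis members to 12.4 and 9.92. *Pcna*, the sliding clamp of the DNA polymerases, was the highest S-phase member with 0.846 and 0.793, a log2 ratio of -0.09 (-0.14 to -0.04). *Slbp* had 0.527 and 0.472 and the helicase subunit *Mcm7* 0.460 and 0.363. The other helicase subunits were less abundant and nearer to each other, from 0.107 for *Mcm4* to 0.176 for *Mcm6* in the library labelled Mir34a_F/F. *Mcm4* was among the few members higher in the library labelled Mir34a_Mye_KO, with 1087 and 868 UMIs, levels of 0.107 and 0.121 and a ratio on the log2 scale of 0.17 (0.04 to 0.30). Its direction turned, to -0.23 (-0.36 to -0.10), when UMIs were summed over the cells before dividing (pooled sums), which lets deep cells count more. The ribonucleotide reductase subunits *Rrm1* (0.223 and 0.231) and *Rrm2* (0.126 and 0.125), which make deoxynucleotides, had like levels in both libraries. *Ccne1*, a cyclin of the G1-to-S transition, had 0.056 and 0.0566, while its paralog *Ccne2* had 0.134 and 0.102, a log2 ratio of -0.40 (-0.52 to -0.28).

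Among the mitosis members of epithelial cells, *Hmgb2* (3.12 and 2.27), the tubulin *Tubb4b* (2.34 and 1.74) and *Top2a* (1.18 and 0.974) were the most abundant. *Mki67* followed with 0.931 and 0.743, and *Ube2c*, which hands ubiquitin to the anaphase-promoting complex, with 0.644 and 0.559. The mitotic cyclins were lower in the library labelled Mir34a_Mye_KO. *Ccnb1* had 0.126 and 0.0945, and *Ccnb2* had 2190 and 1212 UMIs, levels of 0.214 and 0.154, with log2 ratios of -0.41 (-0.55 to -0.27) and -0.48 (-0.58 to -0.38). *Ccna2*, which is made from S phase on, had 0.155 and 0.153. The spindle gene *Ckap2* had the lowest ratio of all members, with 0.151 and 0.104 and a ratio on the log2 scale of -0.54 (-0.66 to -0.42). *Bub1*, a kinase of the spindle checkpoint, had the highest, with 507 and 454 UMIs, levels of 0.0496 and 0.0587 and a ratio on the log2 scale of 0.25 (0.06 to 0.43), which pooled sums turned to -0.07 (-0.25 to 0.12). In epithelial cells 7 of the 46 members were higher in the library labelled Mir34a_Mye_KO by mean levels and 1 by pooled sums. *Smc4* (0.470 and 0.491), *Cenpe* (0.245 and 0.255) and *Kif11* (0.161 and 0.159) had log2 ratios within 0.1 of 0. The members not named here had levels in the library labelled Mir34a_F/F from 0.0358 (*Ung*) to 0.221 (*Hells*) in S phase and from 0.0692 (the spindle pole kinase *Aurka*) to 0.449 (*Cenpf*) in mitosis.

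Between the libraries, the level of the module in epithelial cells gave a log2 ratio of -0.27 (-0.28 to -0.26), with -0.13 (-0.15 to -0.10) for S phase and -0.32 (-0.33 to -0.31) for mitosis. The module ratio turned to 0.16 when the neutrophil level of each library was subtracted, and was -0.07 among cells under the 25% limit of mitochondrial content. The ratio of mitosis lay below that of S phase, with intervals that do not overlap, and the same order held in T cells (-0.16 and -0.32), macrophages (-0.05 and -0.19), B cells (-0.60 and -0.78), mast cells (-0.00 and -0.34) and dendritic cells (-0.28 and -0.59). In neutrophils the intervals overlap, at -0.31 (-0.41 to -0.21) and -0.41 (-0.46 to -0.36), and the median member ran the other way, with -0.46 for S phase and -0.36 for mitosis among members with a level of at least 0.1. The mitosis sum holds the abundant *Hmgb2* and *Tubb4b*, with epithelial log2 ratios of -0.46 and -0.43, and the intervals cover at most counting error. *Hmgb2* had -0.54 in T cells, -0.39 in macrophages and -1.26 in B cells. Without it the mitosis sum fell less than the S-phase sum in T cells and B cells, and about as much in macrophages. The order in these cell types therefore rests on *Hmgb2*. In macrophages of 10 to 25% mitochondrial content the order turned (S phase -0.36, mitosis -0.25), as at 25% or more (-0.64 and -0.35). The median members of S phase and mitosis stood nearer to each other in macrophages, at 0.00 and -0.03, and in epithelial cells at -0.11 and -0.28. The background has to be read beside these values. In epithelial cells the median gene of the table had a log2 ratio of -0.22, and the median of the 38 members with a level of at least 0.1 in either library was -0.17. Of these 38, 1 (*Ckap2*) was past 0.5 on the log2 scale on the lower side, where 8.57% of all genes were, and none on the higher side, where 1.89% were. The libraries also differed in depth and in mitochondrial content in every one of these cell types, and the part of either in these ratios was not tested beyond the ranges given next.

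The epithelial ratio went with the mitochondrial content of the cells. Cells under 10% made up 46.6% and 36.0% of the epithelial cells, cells of 10 to 25% made up 33.4% and 25.2%, and cells of 25% or more 20.04% and 38.8%. The module level was 18.8 and 19.3 in the first range, 15.5 and 12.6 in the second and 12.1 and 8.80 in the third. Both libraries therefore had less of the module where the mitochondrial content was higher. The log2 ratio was 0.04 (0.02 to 0.06) in the first range, -0.30 (-0.32 to -0.28) in the second and -0.45 (-0.49 to -0.42) in the third. For S phase alone it was 0.21, -0.20 and -0.34, and for mitosis -0.02, -0.33 and -0.49. Over the 38 restricted members it was 0.16 (0.14 to 0.19), -0.34 and -0.45, with levels of 9.28 and 10.4 under 10%. In that first range the library labelled Mir34a_Mye_KO thus had more of the module, and its cells there were shallower, with a median of 2647 UMIs against 7580. The share of mitochondrial UMIs also enters the denominator of each level, and without mitochondrial and immunoglobulin genes in it the ratio over all epithelial cells was -0.15.

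**Figure D3:**
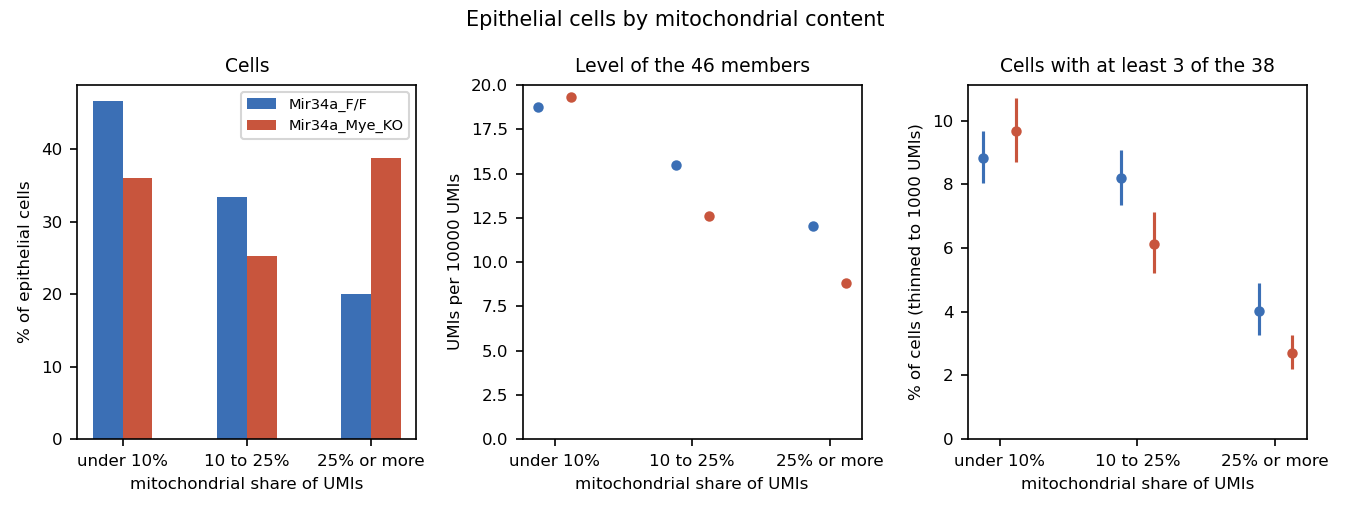
Epithelial cells split by the mitochondrial share of their UMIs (under 10%, 10 to 25%, 25% or more), with the percent of cells in each range, the summed level of the 46 members (UMIs per 10000 UMIs) and the percent of cells with at least 3 of the 38 restricted members at 1000 UMIs, for both libraries with 95% counting intervals. The level is 18.8 and 19.3 in the lowest range and 12.1 and 8.80 in the highest.

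In T cells the most abundant members were *Hmgb2* (7.52 and 5.16), *Tubb4b* (1.54 and 0.996), *Pcna* (1.37 and 1.24) and *Smc4* (1.26 and 1.54). The module had a log2 ratio of -0.27 (-0.29 to -0.25), which was -0.11 (-0.15 to -0.08) over the 38 restricted members. Lowest were *Cdc20*, the activator of the anaphase-promoting complex, with 0.104 and 0.0572 and a ratio on the log2 scale of -0.86 (-1.19 to -0.52), and *Cdk1*, with 0.190 and 0.113 and -0.75 (-0.99 to -0.50). *Kif20b* (0.33), *Rrm2* (0.29) and *Smc4* (0.28) had the highest ratios, and *Mki67* had 0.550 and 0.545. Of 33 members with a level of at least 0.1, 5 were past 0.5 on the lower side (*Mcm7*, *Cdk1*, *Cdc20*, *Tubb4b* and *Hmgb2*), against 12.8% of all genes, and none on the higher side, against 2.90%.

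In macrophages, in which LysM-Cre acts, the size of the difference depended on how cells were weighted. The module level was 12.6 and 11.4, a log2 ratio of -0.14 (-0.17 to -0.12), and the 38 restricted members gave -0.01 (-0.05 to 0.03). Pooled sums gave -0.48 (-0.50 to -0.45) for the module, and the ratio was -0.29 and -0.45 in macrophages of 10 to 25% and of 25% or more mitochondrial content. By mean levels 23 of the 46 members were higher in the library labelled Mir34a_Mye_KO, and by pooled sums 2. *Hmgb2* had 3.61 and 2.75 and *Tubb4b* 1.104 and 0.810, and these abundant members were lower in the library labelled Mir34a_Mye_KO. *Pcna* (1.16 and 1.15), *Mki67* (0.528 and 0.541) and *Top2a* (0.558 and 0.572) had log2 ratios within 0.1 of 0, whereas pooled sums gave -0.13, -0.25 and -0.80. *Ung*, which removes uracil from DNA, had the highest ratio, 0.67 (0.14 to 1.21), on 54 and 71 UMIs, but -0.38 (-0.91 to 0.16) by pooled sums, and *Ccne1* the lowest, -0.47 (-0.93 to -0.03), on 101 and 73 UMIs, and -1.24 (-1.69 to -0.79) by pooled sums. None of the 30 members with a level of at least 0.1 was past 0.5 on either side, where 2.65% of all genes were higher and 5.95% lower. Neutrophils, the other cell type in which LysM-Cre acts, had 9 of 23 such members past 0.5 on the lower side, against 18.8% of all genes, and none on the higher side, against 8.02%.

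B cells had the lowest ratio among the 7 cell types for the sum over all 46 members. Their module level was 14.6 and 8.84, a log2 ratio of -0.72 (-0.76 to -0.69), and -0.44 without mitochondrial and immunoglobulin genes in the denominator. Over the 38 restricted members the ratio was -0.49 in B cells and -0.51 in dendritic cells. *Hmgb2* had 4.39 and 1.83, the kinetochore gene *Cenpf* 0.181 and 0.0533 at a log2 ratio of -1.76 (-2.12 to -1.41), and *Gins2*, a subunit of the active helicase, 0.0904 and 0.035 with -1.37 (-1.91 to -0.82). Against this, *Kif11*, the motor that pushes the spindle poles apart, had 0.103 and 0.200, a log2 ratio of 0.95 (0.63 to 1.28), and the checkpoint gene *Bub1b* 0.0808 and 0.121. Of 29 members, 19 were past 0.5 on the lower side, but so were 34.3% of all genes, and 2 on the higher side, against 5.42%. The median gene had a log2 ratio of -0.34 and B cells had a median of 3664 and 20852 UMIs, so the B cells of the libraries differed in much more than this module.

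In mast cells 5 of 32 members were past 0.5 on the lower side, against 21.3% of all genes, and none on the higher side, against 6.07%. Their S-phase members summed to 4.31 and 4.30. In dendritic cells 13 of 31 members were past 0.5 on the lower side, against 10.7% of all genes, while the median gene had a log2 ratio of 0.00 and the median of these 31 members was -0.42. Lowest among those with at least 100 UMIs over both libraries were *Tyms*, which makes the DNA building block dTMP, with 0.347 and 0.147 and a ratio on the log2 scale of -1.24 (-1.63 to -0.85), *Uhrf1*, which keeps DNA methylation through replication, with -1.04, and the spindle gene *Nusap1* with -0.98. *Smc4* went the other way, with 0.456 and 0.704 and a ratio on the log2 scale of 0.63 (0.36 to 0.90), and was the 1 member past 0.5 on the higher side, against 8.48% of all genes. Dendritic cells numbered 347 and 431, and a difference in which dendritic cells were caught cannot be told apart from a difference in their cycling.

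**Figure D4:**
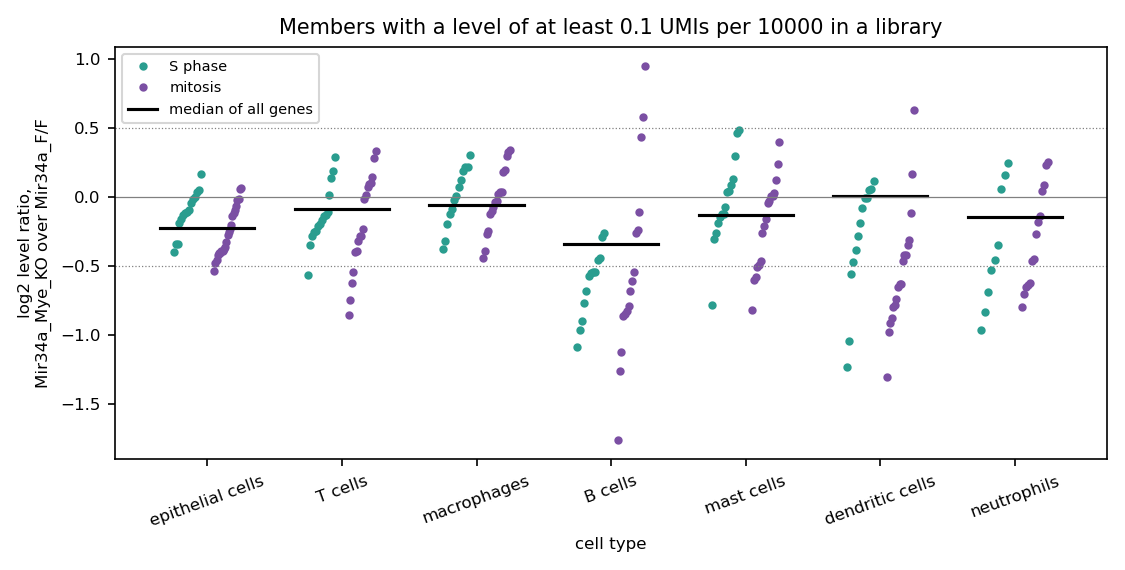
Log2 ratio of the library labelled Mir34a_Mye_KO over the library labelled Mir34a_F/F for each member with a level of at least 0.1 in 7 cell types, S phase and mitosis apart, with a black bar at the median of all genes and dotted lines at 0.5 and -0.5. Members lie around the median of all genes in epithelial cells and macrophages. In dendritic cells the bar stands at 0.00 and the members' median at -0.42. The members' median is also below the bar in neutrophils (-0.45 against -0.15), B cells (-0.58 against -0.34) and T cells (-0.20 against -0.09).

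The smallest groups carried few UMIs. Endothelial cells (116 and 107 cells) had a module level of 15.05 and 11.3, fibroblasts (57 and 60 cells) 10.6 and 7.22, and basophils (48 and 40 cells) 11.97 and 10.8. Erythroid cells (106 and 30 cells) had 13.6 and 14.2, with S-phase members at 3.26 and 6.16 on 72 and 59 UMIs, a log2 ratio of 0.92 (0.40 to 1.44). Pooled sums gave 0.58 (0.06 to 1.097) for these S-phase members, and turned the direction of the erythroid module from 0.07 (-0.23 to 0.36) to -0.31 (-0.61 to -0.02). Each of these values rests on too few cells for more than its counting interval.

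A sum over all cells does not show how many cells divide, so members were also counted within each cell, after each cell was thinned at random to 1000 UMIs and shallower cells (840 and 181) were left out. At least 3 of the 46 members were then found in 1771 of 10987 epithelial cells, 16.1% (15.4 to 16.8, exact binomial interval), and in 1252 of 9705, 12.9% (12.2 to 13.6). This difference turned to 2.93 percentage points higher in the library labelled Mir34a_Mye_KO once cells of 10% or more mitochondrial content, or fewer than 500 mRNAs detected, were left out. T cells had 22.2% and 15.3%, macrophages 10.6% and 9.40%, B cells 12.9% and 6.51%, mast cells 15.5% and 13.2%, and dendritic cells 13.9% and 7.66%. In neutrophils the share was 8.67% (7.02 to 10.6) and 5.11% (3.87 to 6.60), which is the share in a cell type that has left the cycle, and its source was not tested. *Mki67* alone, read in the same thinned cells, was found in 7.36% and 5.97% of epithelial cells, 4.83% and 5.03% of T cells, 4.65% and 4.12% of macrophages, 3.76% and 6.07% of B cells, 4.37% and 5.24% of mast cells, 5.78% and 3.25% of dendritic cells and 4.09% and 2.42% of neutrophils. In B cells, mast cells and T cells the library labelled Mir34a_Mye_KO thus had the higher *Mki67* share, opposite to the share with at least 3 members, with intervals that overlap. Without thinning the shares were 70.5% and 72.7% in epithelial cells, 75.6% and 90.4% in T cells and 59.2% and 73.7% in neutrophils, with the library labelled Mir34a_Mye_KO, which was deeper, above the other. Many cells lay at the limit, with 808 and 608 epithelial cells at exactly 3 members and 1745 and 1587 at exactly 2, so the class is a range of a score and not a cell type.

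A stricter class, chosen after these values were seen, took cells with at least 5 of the 38 restricted members at 2000 UMIs per cell. It held 751 of 9782 epithelial cells, 7.68% (7.16 to 8.22), and 459 of 8266, 5.55% (5.07 to 6.07), while neutrophils had 15 of 910, 1.65% (0.925 to 2.70), and 4 of 1013, 0.395% (0.108 to 1.01). Epithelial cells thus stood clear of the neutrophils in both libraries. T cells had 3.37% (2.70 to 4.15) and 2.90% (2.28 to 3.62), macrophages 3.12% (2.40 to 3.98) and 2.72% (2.10 to 3.46), and mast cells 3.92% and 4.72%. Between the libraries, the intervals of T cells, macrophages and mast cells overlap. In B cells the share was 2.88% (1.85 to 4.26) and 1.65% (0.927 to 2.71), the latter above the 0.395% of the neutrophils of its own library, with intervals that overlap. Dendritic cells had 19 of 330, 5.76% (3.50 to 8.85), and 13 of 422, 3.08% (1.65 to 5.21), so they too stood clear of the neutrophils in both libraries. T cells, macrophages and mast cells did so in the library labelled Mir34a_Mye_KO only. Another 289 and 171 epithelial cells had exactly 4 of the members, just outside the class, and 215 and 151 had exactly 5.

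The members met in the same cells. They were chosen with earlier results of these data known, so this describes the members and is no independent check. For each member, the share of its UMIs in cells with at least 3 other members was divided by the share of all UMIs in these cells. In epithelial cells 39 of 46 members reached 2 times in the library labelled Mir34a_F/F and 37 of 46 in the library labelled Mir34a_Mye_KO, against 2.57% and 3.43% of genes that are no members. *Ccnb1* had the highest value in the first library, 4.04, with 64.6% of its UMIs in 16.0% of the cells, and *Anln*, which builds the cleavage furrow, in the second, 4.17. *Tubb4b* was lowest in both, 1.23 and 1.34. *Pcna* (1.43 and 1.84) and *Slbp* (1.58 and 1.60) were also spread over cells with few other members. In macrophages 21 of 29 and 21 of 30 members reached 2 times, against 2.48% and 3.60% of other genes, led by *Cenpe* (5.61) and *Birc5* (5.36). In T cells only 5 of 35 did in the library labelled Mir34a_F/F (*Rrm2*, *Nusap1*, *Mki67*, *Cenpe* and *Ccnb2*) and 19 of 31 in the library labelled Mir34a_Mye_KO, against 0.207% and 1.06% of other genes.

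S-phase and mitosis members were also counted apart within each cell. In epithelial cells thinned to 1000 UMIs, 18.9% and 16.2% had at least 2 mitosis members and fewer than 2 S-phase members, 3.44% and 3.54% the reverse, and 2.82% and 2.24% at least 2 of both. Neutrophils had 17.5% and 14.2% in the first class, which *Hmgb2* and *Tubb4b* alone can fill, and 0.877% and 0.0929% in the last. The 38 restricted members hold 14 of S phase and 24 of mitosis, so a limit of 3 does not ask the same of both. The classes are therefore not phase calls, and their sizes do not give the cells in each phase. At 2000 UMIs and over these 38, 92 and 54 epithelial cells had at least 3 S-phase members and fewer than 3 mitosis members. The reverse held for 1008 and 642, and 109 and 54 had at least 3 of both, while 8573 and 7516 had neither. At least 3 mitosis members were thus found in 109 of the 201 and in 54 of the 108 cells with at least 3 S-phase members, against 11.4% and 8.42% of all epithelial cells, so many cells rich in S-phase members were rich in mitosis members too.

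Each member was then placed between the cells rich in one group of members only, with the member itself left out of the count that defined them. The other members still defined these cells, so members that meet in the same cells fall on the same side. The placement describes the members and is no independent check. All 27 mitosis members were higher in the mitosis-rich than in the S-rich cells in both libraries, by a median log2 ratio of 1.58 and 1.55 over the 26 with UMIs in both classes, with the counting interval above 0 for 21 and 15 of them. Of genes that are no members, with at least 25 UMIs in these cells, 47.6% and 47.2% were higher in the mitosis-rich cells, 2.46% and 1.60% with the interval above 0 and 4.68% and 3.85% with it below 0. Of the 19 S-phase members, 18 and 19 were higher in the S-rich cells, by a median of -1.29 and -1.44, with the interval below 0 for 11 and 12. Among those with at least 25 UMIs, as asked of the other genes, 17 of 18 and 15 of 15 were, with the interval below 0 for 10 and 11. *Gins2* in the library labelled Mir34a_F/F was the exception, at 0.26 (-1.72 to 3.38), on 2 UMIs in the S-rich and 29 in the mitosis-rich cells. The kinetochore genes *Cenpe* (2.73 and 2.15) and *Cenpf* (2.60 and 2.50) were far on the side of mitosis, and *Ube2c* had 2.76 and 1.78. *Mki67* stood at 1.80 and 1.88 and *Top2a*, which is made from late S phase, at 1.23 and 0.84. On the other side were *Ccne2* (-1.80 and -2.46) and *Hells* (-1.76 and -1.31). *Ung* (-2.72 and -4.16) stood there on few UMIs, 3 and 6 in the S-rich and 5 and 4 in the mitosis-rich cells. The helicase loader *Cdc6* (-2.34 and -1.89) had 9 and 3 in the S-rich and 21 and 10 in the mitosis-rich cells, with an interval of -3.85 to 0.61 in the library labelled Mir34a_Mye_KO. Among the 8 widely made members, *Hmgb2* had 0.84 and 0.52 and *Pcna* -0.90 and -0.78. The interval held 0 in 1 library each for *Rrm1* (-0.27, -1.10 to 0.68) and *Slbp* (-0.74, -1.44 to 0.04) in the library labelled Mir34a_F/F and *Mcm7* (-0.69, -1.53 to 0.27) and *Tubb4b* (0.39, -0.20 to 1.03) in the library labelled Mir34a_Mye_KO.

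**Figure D5:**
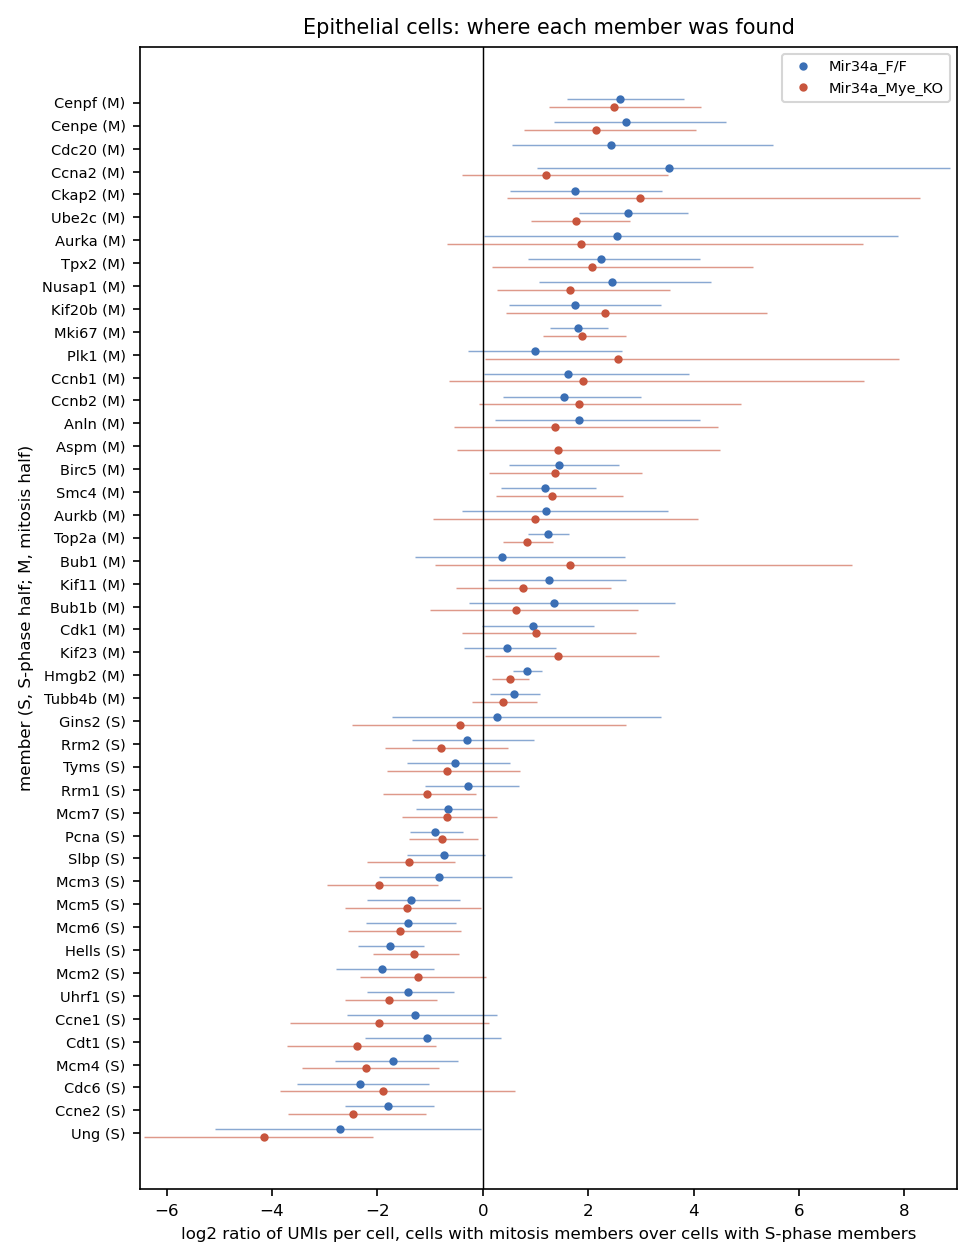
Log2 ratio of each member's level in epithelial cells rich in mitosis members over those rich in S-phase members, for both libraries with 95% counting intervals, the member itself left out of the classes. All mitosis members drawn, 26 in each library, lie right of 0, and 18 and 19 of the 19 S-phase members left of it. No point is drawn where a class had 0 UMIs, which held for *Aspm* in the library labelled Mir34a_F/F and *Cdc20* in the library labelled Mir34a_Mye_KO.

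Other genes of the cell cycle, fixed as lists of genes that are no members, were followed in both classes. The first class is cells with at least 3 of the 46 members. In it, 27 and 25 of 38 S-phase and 42 and 43 of 46 mitosis genes reached 2 times in epithelial cells. Of all genes that are no members, 2.57% and 3.43% did. T cells had 4 of 20 and 7 of 17 S-phase and 2 of 22 and 13 of 22 mitosis genes, against 0.207% and 1.06%. Macrophages had 6 of 8 and 4 of 13 S-phase and 6 of 11 and 15 of 17 mitosis genes, against 2.48% and 3.60%. In the stricter class, 36 and 38 of 40 other S-phase genes and 43 and 44 of 46 mitosis genes reached 2 times in epithelial cells. Of all genes that are no members, 5.80% and 10.4% did. *Prc1*, which bundles the central spindle, was found in 26.6% and 23.7% of these epithelial cells and in 2.72% and 2.33% of the others. The thymidine kinase *Tk1* was found in 8.79% and 5.88% against 1.01% and 0.986%. *Zwint* and *Pttg1*, also listed under mitosis, did not reach 2 times in either library. In T cells 28 of 34 and 31 of 32 S-phase genes and 31 of 33 and 32 of 34 mitosis genes with enough UMIs reached 2 times, against 8.14% and 10.3%. In macrophages 16 of 17 and 21 of 24 S-phase genes and 22 of 24 and 22 of 26 mitosis genes did, against 11.1% and 11.9%.

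Of 26 genes that start or brake the cycle, 6 and 7 reached 2 times in epithelial cells, 8 and 6 in T cells, and 10 and 8 of 23 in macrophages, against the same shares of all genes that are no members as for the lists above (5.80% and 10.4%, 8.14% and 10.3%, 11.1% and 11.9%). Below 1, so less than evenly spread, were 10 and 10 of them in epithelial cells, 10 and 11 in T cells and 10 and 9 in macrophages, and 47.8% and 41.0%, 52.5% and 51.4%, and 51.3% and 50.4% of genes that are no members were there too. *E2f3*, a factor that turns on S-phase genes, was present in 21.7% and 16.8% of this class and in 9.04% and 8.43% of the others, and *Ccnd1* (cyclin D1) in 25.03% and 25.3% against 16.2% and 12.8%. The phosphatase gene *Cdc25b*, which activates CDK1, was found in 5.46% and 4.14% against 1.04% and 0.986%. The inhibitor gene *Cdkn1a* (p21) was found in 30.4% and 23.97% against 37.2% and 29.0%, and the antiproliferative *Btg2* in 32.9% and 32.5% against 42.8% and 42.8%. *Cdkn2c*, an inhibitor of CDK4 and CDK6, went the other way, with 3.06% and 4.58% against 0.465% and 0.359%.

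The state of the epithelial cells of the stricter class was read from marker genes. *Krt20*, a keratin of the surface epithelium, was found in 6.92% and 6.97% of them and in 20.3% and 18.7% of the others, and the goblet cell mucin *Muc2* in 11.98% and 16.6% against 16.9% and 20.2%. Counting intervals of the classes overlapped for *Muc2* in the library labelled Mir34a_Mye_KO and not for *Krt20* in either. The Wnt target *Axin2* was found in 27.3% and 32.0% against 22.1% and 19.6%. Of the stem cell genes, *Lgr5* was found in 6.52% and 5.45% against 8.64% and 7.97%, with intervals that overlap in both libraries. *Ascl2* was found in 3.86% and 2.61% against 1.75% and 1.72%, with intervals that overlap in the library labelled Mir34a_Mye_KO only. Cells of the class were deeper before thinning, with a median of 7823 and 9894 UMIs against 6453 and 8028, and had a median mitochondrial content of 9.65% and 10.4% against 11.4% and 23.7%. Summed epithelial markers were at 76.0 and 57.5 in the class and at 89.5 and 62.0 in the others.

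Macrophages of the stricter class, 62 and 64 cells, had the complement gene *C1qa* of resident macrophages in 93.5% and 92.2%, against 55.6% and 64.9% of the others. The monocyte genes *Ly6c2* (1.61% and 3.12% against 14.0% and 10.7%) and *Vcan* (1.61% and 0% against 12.05% and 9.05%) stood in fewer of them. For *Vcan*, 0 of 64 cells allows a share of up to 4.69%. *Cd163* and *Lyve1*, other genes of resident macrophages, were found in 0 of 62 and 0 of 64 cells of the class, which allows up to 4.84% and 4.69%, and in under 1% of the others. With so few cells, 0 does not set the class apart from the others for these genes. Summed macrophage markers were at 65.6 and 64.1 against 42.3 and 49.3, so the class was not short of macrophage mRNAs, and summed epithelial markers at 20.6 and 22.7 against 21.5 and 16.0. The depth of these cells differed between the libraries, with a median of 16074 UMIs against 7812 for the others in the library labelled Mir34a_F/F and of 4087 against 12969 in the library labelled Mir34a_Mye_KO. The part of free RNA and of joined cells in this class was not tested, beyond the removal of doublets by the authors.

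T cells of the stricter class, 85 and 74 cells, were read for genes of naive and resting T cells. *Ccr7* was found in 5.88% and 10.8% against 14.3% and 13.1%, and *Tcf7* in 8.24% and 12.2% against 15.5% and 16.3%. The intervals of these shares overlap those of the other T cells for both genes in both libraries. *Foxp3*, the factor of regulatory T cells, was found in 12.9% and 12.2% against 10.8% and 11.8%. Summed epithelial markers were at 25.2 and 14.3 against 27.8 and 17.1. Mast cells of the class, 20 and 35 cells, had the chymase gene *Cma1* in 15 of 20 cells and in 65.7% against 45.1% and 50.1%, with summed mast cell markers of 1088 and 995 against 716 and 621.

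Most cells with several members were epithelial. Of all thinned cells with at least 3 of the 46 members, 57.6% (55.9 to 59.4) and 57.7% (55.6 to 59.8) were epithelial, and they were 56.4% and 52.8% of all thinned cells. T cells were 21.7% and 18.6%, against 15.4% and 14.4% of all thinned cells, macrophages 7.58% and 11.2% against 11.3% and 14.1%, and neutrophils 2.90% and 2.53% against 5.27% and 5.85%. The high part of T cells held for the class over all 46 members only. Without the 8 widely made members, 4.23% and 3.71% of T cells had at least 3 members, against 7.59% and 6.02% of epithelial cells. The parts of the cell types also depend on how many cells of each type came through dissociation.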

How the data were processed

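Per the labels and the study's methods, reads were aligned to the mouse genome and counted with Cell Ranger 7.2.0, doublets were removed with Scrublet, and cells were filtered and normalized with Seurat. The deposited values are natural log values made by the authors, ln(1 + UMIs per 10000 UMIs of the cell), from which whole UMIs were recovered for 100% of values (within 0.001 of a whole number). Cell types are those of the deposited annotation. Levels, log2 ratios (exact conditional binomial width), UMI sums (exact Poisson) and shares (exact binomial, with 3 counts of the total as the limit for a count of 0) were computed with pandas 2.3.3, scipy 1.17.1 and numpy 2.4.6 in Python 3.11.15, and drawn with matplotlib 3.10.9. Intervals are nominally 95% and cover no more than counting error. Those of levels and of log2 ratios of mean levels take their width from the summed UMIs. Mean levels weight shallow cells more, so the counting error of these values can be wider. With 1 library per genotype there was no test. Concentration in cells (2 times or more) was read for genes with at least 25 UMIs. The methods were tested on simulated data. Named per main cell type were the 3 most abundant S-phase and mitosis members and the 3 largest log2 ratios in each direction with at least 100 UMIs over both libraries. Other members and state genes were named after their values were seen. Members and lists were chosen with earlier results of these data known. Alternatives concerned the denominator, cell filter, members and thinning.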

Additional observations from a re-analysis of the deposited data

Results flagged for a closer look

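In epithelial cells, the log2 ratio of the module, library labelled Mir34a_Mye_KO over library labelled Mir34a_F/F, had opposite directions in cells of low and of high mitochondrial content. It was 0.0419 under 10%, -0.30 at 10 to 25% and -0.45 at 25% or more. The difference between these ranges was not tested, and the cells under 10% were shallower in the library labelled Mir34a_Mye_KO.

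The S-phase members gave a log2 ratio of 0.92 in erythroid cells and of -0.13 in epithelial cells, so opposite directions in these cell types. The difference was not tested, and the erythroid value rests on 72 and 59 UMIs and was 0.58 (0.06 to 1.097) with pooled sums.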

How the results depend on the processing

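No paired analysis was possible because each genotype had 1 library. The log2 ratio of the module in epithelial cells (-0.27) reversed to 0.0473 in a stricter cell filter (500 mRNAs or more, mitochondrial share below 10%), to 0.16 with the neutrophil level subtracted and to 0.0419 in the range under 10%. It moved to -0.38 with pooled sums, -0.0719 in cells under 25%, -0.22 without the 8 widely made members, -0.25 with a pseudocount of 1, -0.15 without mitochondrial and immunoglobulin genes in the denominator, and -0.30 and -0.45 in the upper ranges of mitochondrial content. In T cells (-0.27) the same settings gave, for pooled sums, the stricter filter, without the 8, neutrophils subtracted, and the denominator, -0.23, -0.25, -0.11, -0.0844 and -0.24, and in the 3 ranges -0.25, -0.23 and -0.41. In macrophages (-0.14) pooled sums, the stricter filter, without the 8 and the denominator gave -0.48, -0.11, -0.0103 and -0.10, and the ranges -0.11, -0.29 and -0.45. In B cells (-0.72) pooled sums, without the 8, the pseudocount and the denominator gave -0.80, -0.49, -0.66 and -0.44. In mast cells subtracting neutrophils reversed the ratio to 0.32. The difference in the share of cells with at least 3 members, in percentage points, was -3.22 in epithelial cells, 2.15 unthinned (reversed), -8.00 at 2000 UMIs, -1.76 for at least 5 members, -1.57 without the 8, 2.93 with the stricter cell filter (reversed), and -2.12 in the stricter class. In T cells (-6.95) it was 14.9 unthinned (reversed), -11.5 at 2000 UMIs, -0.679 for at least 5, -0.518 without the 8 and -0.475 in the stricter class. In macrophages (-1.22) it was 3.32 unthinned and 0.0778 for at least 5 members (sign turned in both), -3.35 at 2000 UMIs, -4.19 for at least 2, and -0.394 without the 8. In B cells (-6.38) it was 17.2 unthinned (reversed), -17.7 at 2000 UMIs, -13.7 for at least 2, -0.522 for at least 5, -1.16 without the 8 and -1.23 in the stricter class. Unthinned shares were also reversed in neutrophils (14.6) and dendritic cells (3.76), and turned sign in mast cells (-2.30 to 26.0). The ranges, the stricter class, pooled sums per member and leaving out shared barcodes were chosen after seeing the data, and the last moved no ratio beyond its interval. Unthinned shares count members in cells of unequal depth. For the other settings the cause was not tested. Depth limits the 4 smallest cell types.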

Other observations

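Across the 22 pairs of cell type and library, the genes whose level was most like that of the module, by Pearson correlation of log2 levels over 7039 genes, were *Tfrc* (r = 0.82), the transferrin receptor that brings iron into the cell, *Clk3* (0.77), the histone genes *Hist1h2ae* (0.73) and *Hist1h4d* (0.72), *Snrnp70* (0.73), *Uqcrh* (0.73), *Stmn1* (0.71), *Frg1* (0.71), *Aim2* (0.71) and *Arpp19* (0.70). Of these only *Stmn1* was on a list of cell cycle genes. The pairs share libraries and their depth, so this is a description.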
